A study of Homo sapiens with 12 samples.

Results

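The genes of the epithelial cell-cell junctions were followed in 2 lines of human oral squamous cell carcinoma, SCC-15 and CAL-27, with and without knockdown of TTK. They are 10 genes in all, taken by symbol from a table of 58735 gene rows: the cadherins CDH1 and CDH3, the catenins CTNNB1 and CTNNA1, the claudins CLDN1, CLDN4 and CLDN7, occludin (OCLN), the junctional adhesion molecule F11R and the scaffold TJP1. Each symbol matched 1 row, and all 10 passed the filter on low counts that left 16946 genes for testing. The rule uses the symbol alone.

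Adherens junctions hold neighbouring epithelial cells together through classical cadherins, whose extracellular domains bind each other across the gap and whose tails bind beta-catenin, which in turn binds alpha-catenin and so the actin cytoskeleton. Tight junctions lie above them and seal the space between cells: claudins form the barrier strands, occludin and junctional adhesion molecules lie beside them, and scaffolds such as TJP1 (ZO-1) tie them to actin. In carcinomas of the mouth, as in other squamous tissue, E-cadherin and P-cadherin are both present, and loss of E-cadherin is a hallmark of a shift toward a mesenchymal state.

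Poly(A) RNA of 12 libraries was sequenced in strand-specific paired reads of 150 bases, and the deposited values are raw counts per gene. The groups are SCC-15 shTTK, SCC-15 shControl, CAL-27 shTTK and CAL-27 shControl, with 3 libraries each. The shTTK libraries carry the genotype label TTK knockdown and the shControl libraries the label WT. All are labelled untreated and batch 1. A control hairpin is thus named in the titles but not in the genotype field, and neither the hairpin sequence nor the clone or pool state of the cells is given in the sources used here. The labels do not say that numbered libraries came from separate cultures. The p-values below therefore describe the spread between libraries, which may be technical in part.

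Promoter sequence was read for a short motif that the repressors SNAI1, SNAI2, ZEB1 and ZEB2 are known to bind, the E-box CACCTG and its reverse complement CAGGTG, because these factors are the textbook repressors of CDH1. RefSeq windows on GRCh38.p14, from 250 bases before to 50 bases after a start, were found for 7 of the 10 genes and gave 15 windows. Of these, 4 held the motif, against 17.5% of all 35116 windows. The sites are printed 5′ to 3′ on the gene's own strand in 30 bases each, with the motif in capitals. They show where the windows of occludin, TJP1 and CLDN7 carry it. In each OCLN and CLDN7 stretch, motif bases also lie in an exon of some GENCODE 29 transcript of the gene. In the TJP1 stretch no motif base does.
OCLN, chr5:69492502-69492531, plus strand: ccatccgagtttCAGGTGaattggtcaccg
OCLN, chr5:69492645-69492674, plus strand: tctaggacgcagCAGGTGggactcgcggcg
TJP1, chr15:29969120-29969149, minus strand: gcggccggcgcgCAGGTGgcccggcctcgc
CLDN7, chr17:7262635-7262664, minus strand: tttcttcctcctCACCTGggcaaggagggg
CLDN7, chr17:7262596-7262625, minus strand: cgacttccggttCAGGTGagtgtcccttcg
CLDN7, chr17:7262479-7262508, minus strand: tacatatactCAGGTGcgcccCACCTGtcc

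In OCLN the motif began 33 and 133 bases before 2 different annotated starts, and in TJP1 88 bases before 1 of its 4 starts. CLDN7 held 4 copies in 1 window, at 174, 135, 20 and 9 bases before the start. A window with 4 or more copies occurred 43 times among all windows (0.122%). The windows of CTNNB1, CTNNA1, CLDN1 and CLDN4 held none. The motif was searched with the expression values known, and a match is a stretch of letters, not a measured binding site.

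Total counts per library lay between 16176655 and 18484112. TTK, the kinase of the spindle checkpoint that the hairpin targets, averaged 30.1 ± 3.80 CPM (library-scaled counts, by TMM) in SCC-15 shTTK and 69.9 ± 2.77 in SCC-15 shControl (SD, n = 3 each). It averaged 33.9 ± 1.57 CPM in CAL-27 shTTK and 49.4 ± 3.58 CPM in CAL-27 shControl (SD, n = 3 each). The log2 fold change was -1.21 in SCC-15 (edgeR adjusted p = 1.92e-25) and -0.54 in CAL-27 (edgeR adjusted p = 4.04e-10), so the knockdown was deeper in SCC-15, by -0.67 ± 0.093 (SE). Both SCC-15 libraries numbered 1 stood apart from their group: the mean chi-square per gene against libraries 2 and 3 was 3.07 and 3.78 for shTTK library 1 and 5.62 and 5.96 for shControl library 1. It was 1.95 and 1.98 between libraries 2 and 3 of those groups and 2.37 to 2.89 in CAL-27. The median chi-square, relative to sampling noise alone, was 1.92 and 2.11 for SCC-15 shControl library 1, against 1.76 between libraries 2 and 3 and 1.94 to 2.14 in CAL-27, so its distance lay in a minority of genes. For SCC-15 shTTK library 1 it was 2.20 and 2.63, against 1.77. Results are therefore also given without these libraries.

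The lines carry markers of squamous epithelium, at unequal levels. The summed level of 8 keratinocyte markers was 5520 to 5541 CPM in SCC-15 shTTK and 6199 to 6521 CPM in SCC-15 shControl. It was 3416 to 3507 CPM in CAL-27 shTTK and 1880 to 1967 CPM in CAL-27 shControl. Of these markers, 6 rose and EPCAM fell in CAL-27, where 27.3% of all genes were called. In SCC-15, where 27.7% of all genes were called, SFN rose and 4 fell. The 4 (KRT5, KRT14, KRT6A and TP63) were among those that rose in CAL-27. PKP1, a desmosome plaque protein, averaged 0.784 CPM in SCC-15 shTTK and 0.907 CPM in SCC-15 shControl. Of 8 fibroblast markers, mostly COL1A1, the sum was 20.6 to 22.7 CPM in SCC-15 shTTK and 21.2 to 23.0 CPM in SCC-15 shControl. It was 41.5 to 42.3 CPM in CAL-27 shTTK and 32.0 to 37.7 CPM in CAL-27 shControl, and COL1A1 rose there (0.36, edgeR adjusted p = 7.48e-05). In the CAL-27 libraries PDGFRB had 55 to 95 and COL1A2 40 to 61 counts each, and DCN had 0. Of 7 leukocyte markers the sum was at most 1.20 CPM in SCC-15. In CAL-27 it was 13.4 to 17.0 CPM in shTTK libraries and 11.9 to 15.2 CPM in shControl libraries, mostly CD14, which rose (0.46, edgeR adjusted p = 0.0118). There ITGAM had 39 to 64 counts per library and PTPRC had 0. The CD14 ranges of the CAL-27 groups overlapped, and 15 of 20 alternatives kept its call. Keratinocyte markers thus moved with TTK knockdown in both lines. In CAL-27, 2 of 4 tested fibroblast markers (COL1A1 among them) rose, as did CD14, 1 of 2 tested leukocyte markers. Of 3 tested endothelial markers, 2 fell there. Lists this short say little beside the share of all genes called. The part of these markers in the junction results was not tested.

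The 2 lines differed in how the junction genes stood after TTK knockdown. In SCC-15, CDH1, CDH3, CTNNA1, CLDN4 and OCLN rose and CLDN1 and TJP1 fell, so 7 of the 10 genes passed an adjusted p under 0.05, where 27.7% of all genes did (13.4% higher and 14.3% lower). In CAL-27, CDH3 and CLDN7 rose and CDH1, CLDN4, OCLN and TJP1 fell, 6 of 10, where 27.3% of all genes passed (11.6% higher and 15.7% lower). CDH1, CLDN4 and OCLN thus rose in SCC-15 and fell in CAL-27. The median log2 fold change of the 10 genes was 0.14 in SCC-15 and -0.04 in CAL-27, beside 0.00 in SCC-15 and -0.01 in CAL-27 over all genes tested. The ranges of the 2 groups did not overlap for 8 genes in SCC-15, 6 higher and 2 lower, where 38.9% of all genes were separated (19.3% higher and 19.6% lower). In CAL-27 they did not overlap for 8 genes, 3 higher and 5 lower, where the share was 38.4% (17.1% higher and 21.3% lower). By mean CPM, OCLN and CLDN7 lay above 50.4% and 56.7% of the genes tested, and the other members above 87.7% to 99.2%. The shares over all genes, here and below, are not matched for level. Whether level bears on the counts was not tested.

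**Figure D1:**
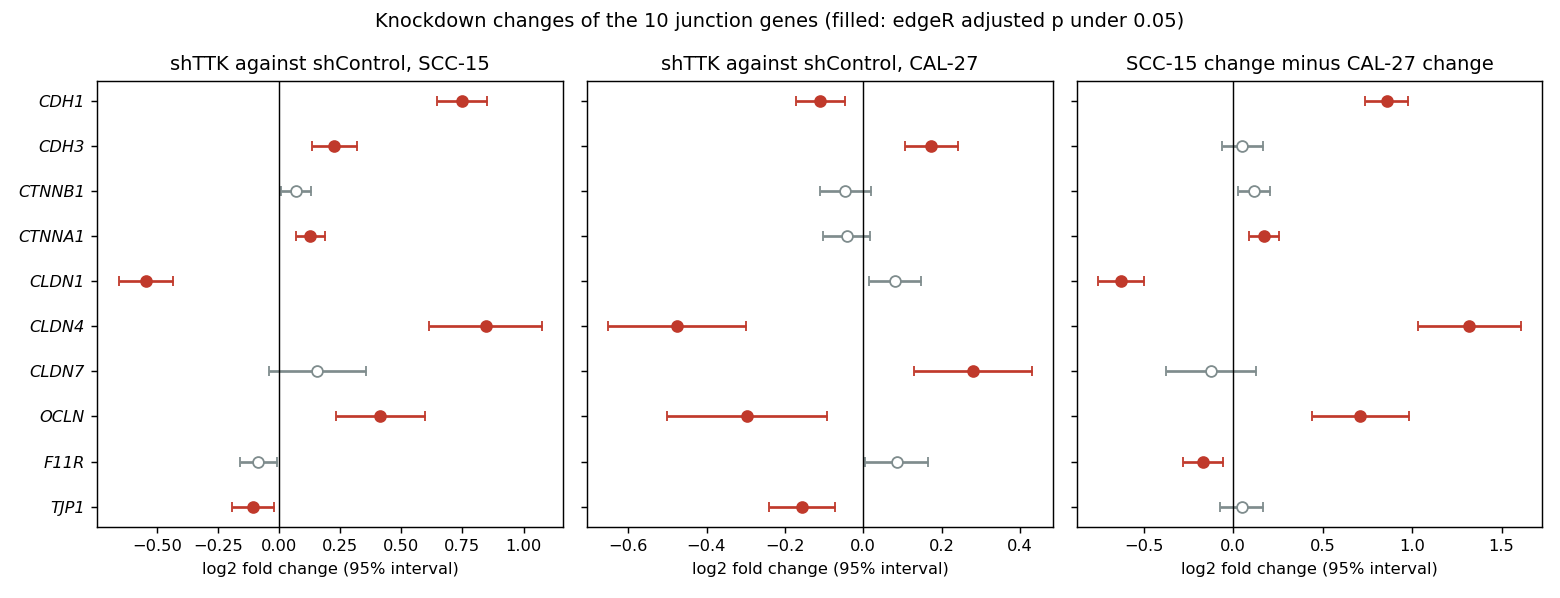
Log2 fold change of each of the 10 junction genes (x axis, with 95% interval) for shTTK against shControl in SCC-15, the same in CAL-27, and the SCC-15 change less that of CAL-27. Filled points passed an edgeR adjusted p under 0.05: CDH1, CLDN4 and OCLN lie right of 0 in SCC-15 and left of 0 in CAL-27, and CLDN4 has the largest difference between the lines, 1.32.

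CDH1 encodes E-cadherin, the main cadherin of epithelial adherens junctions. It lies on chromosome 16 from 68737225 to 68835548, plus strand (GRCh38, GENCODE 29, as for all genes here). In SCC-15 its level was 39.2, 39.9 and 42.5 CPM in shTTK libraries and 23.1, 24.7 and 24.6 CPM in shControl libraries. In CAL-27 it was 423, 417 and 413 CPM in shTTK libraries and 444, 459 and 448 CPM in shControl libraries. Every SCC-15 shTTK library was above every SCC-15 shControl library, and every CAL-27 shTTK library was below every CAL-27 shControl library. The log2 fold change was 0.75 ± 0.051 in SCC-15 (SE, edgeR adjusted p = 4.29e-21), 168% of the shControl level. It was -0.11 ± 0.032 in CAL-27 (edgeR adjusted p = 5.49e-03), 92.7% of the shControl level. The 2 changes differed by 0.86 ± 0.060 (edgeR adjusted p = 2.37e-20).

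The CDH1 rise in SCC-15 took place at a low level. After it, SCC-15 shTTK libraries held 672 to 761 CDH1 counts, and CAL-27 shTTK libraries held 6716 to 7058. In bulk RNA, a change in the number of cells that make a transcript and a change in the amount per cell cannot be told apart, and this holds for each gene below. The small CAL-27 decrease was no longer called without CAL-27 shControl library 2 (log2 fold change -0.08, edgeR adjusted p = 0.112), without CAL-27 shTTK library 3 (-0.08, edgeR adjusted p = 0.0928) or with no count filter (-0.09, edgeR adjusted p = 0.0821).

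CDH3 encodes P-cadherin, the cadherin of basal layers of stratified epithelium. The gene lies just before CDH1 on the same strand (chromosome 16, 68636189 to 68722616), 14608 bases away with no annotated gene wholly between. It was at 57.7, 56.1 and 59.0 CPM in SCC-15 shTTK libraries and 45.9, 50.9 and 51.0 CPM in SCC-15 shControl libraries. In CAL-27, shTTK libraries had 396, 422 and 386 CPM and shControl libraries 349, 361 and 357 CPM. In both lines all shTTK values lay above all shControl values. CDH3 rose by a log2 fold change of 0.23 ± 0.046 in SCC-15 (SE, edgeR adjusted p = 5.84e-05) and 0.17 ± 0.034 in CAL-27 (edgeR adjusted p = 2.94e-05). No difference between the lines was called, with 0.05 and a 95% interval of -0.06 to 0.17 (edgeR adjusted p = 0.571). The neighbouring cadherins therefore had different patterns: CDH3 rose in both lines, and CDH1 rose in SCC-15 and fell in CAL-27.

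Per kilobase of annotated exon, CDH1 made up 40.7%, 41.8% and 42.1% of the sum of CDH1 and CDH3 in SCC-15 shTTK libraries and 33.7%, 32.9% and 32.7% in SCC-15 shControl libraries. In CAL-27 the share was 51.9%, 49.98% and 52.0% in shTTK libraries and 56.2%, 56.2% and 55.9% in shControl libraries. The E-cadherin share was thus 8.43 percentage points higher with knockdown in SCC-15. In CAL-27 the difference was -4.85 percentage points. The groups did not overlap in either line, and the two-sided exact permutation test gave p = 0.1 in both, the smallest p that 3 against 3 libraries allow.

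**Figure D2:**
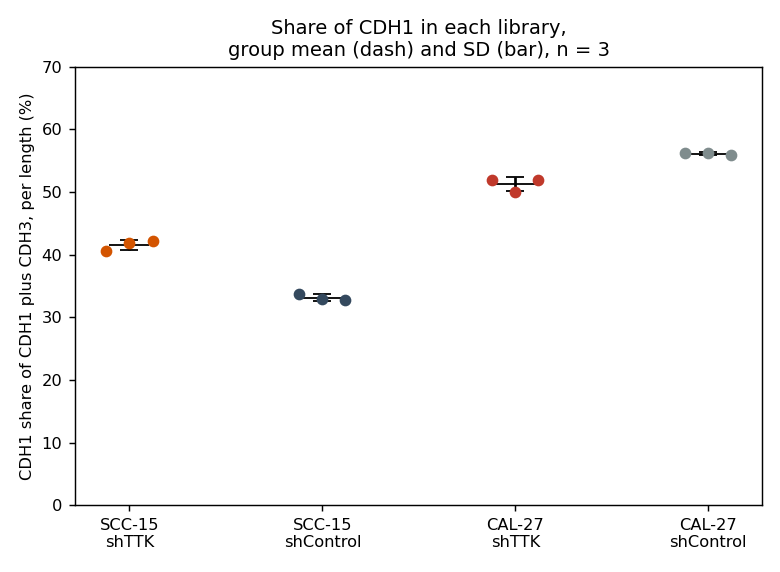
CDH1 as a percentage of CDH1 plus CDH3 per exon length (y axis) in each library (points), with group mean (dash) and SD (bar), n = 3. The mean is 41.5% in SCC-15 shTTK against 33.1% in SCC-15 shControl, and 51.3% in CAL-27 shTTK against 56.1% in CAL-27 shControl.

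Both catenins had small values. CTNNB1 (chromosome 3, 41194741 to 41260096, plus strand) encodes beta-catenin, which binds cadherin tails and also serves as the coactivator of Wnt signalling. It was at 322, 319 and 323 CPM in SCC-15 shTTK libraries and 306, 310 and 304 CPM in SCC-15 shControl libraries. In CAL-27 it was at 217, 222 and 228 CPM in shTTK libraries and 227, 232 and 230 CPM in shControl libraries. The SCC-15 groups did not overlap and the CAL-27 groups did. The log2 fold change was 0.07 in SCC-15, with an interval of 0.01 to 0.13 (edgeR adjusted p = 0.0955), and -0.05 in CAL-27, with an interval of -0.11 to 0.02 (edgeR adjusted p = 0.332). DESeq2 called the SCC-15 value (0.08, DESeq2 adjusted p = 0.0242). The difference between the lines, 0.11 with an interval of 0.02 to 0.21, was not called (edgeR adjusted p = 0.0524), but it was with RLE factors (edgeR adjusted p = 0.0351), DESeq2 (0.0152), limma-voom (0.0338) and without CAL-27 shControl library 1 (edgeR adjusted p = 0.0424).

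CTNNA1 (chromosome 5, 138610967 to 138935034, plus strand) encodes alpha-catenin, the link from beta-catenin to actin. SCC-15 shTTK libraries had 485, 477 and 493 CPM and SCC-15 shControl libraries 438, 439 and 454 CPM. CAL-27 shTTK libraries had 525, 525 and 533 CPM and CAL-27 shControl libraries 540, 546 and 545 CPM. The groups did not overlap in either line, higher with knockdown in SCC-15 and lower in CAL-27. CTNNA1 rose by a log2 fold change of 0.13 ± 0.030 in SCC-15 (SE, edgeR adjusted p = 4.06e-04). The CAL-27 value of -0.04 was not called, with an interval of -0.10 to 0.02 (edgeR adjusted p = 0.311). The changes differed between the lines by 0.17 ± 0.042 (edgeR adjusted p = 9.42e-04).

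The 3 claudins each had a pattern of their own. CLDN4 (chromosome 7, 73799542 to 73832693, plus strand) encodes a claudin of many simple and stratified epithelia. It was at 95.9, 88.0 and 84.9 CPM in SCC-15 shTTK libraries and 51.7, 49.4 and 48.6 CPM in SCC-15 shControl libraries. CAL-27 shTTK libraries had 506, 509 and 528 CPM and CAL-27 shControl libraries 635, 801 and 708 CPM. The shTTK libraries lay above all controls in SCC-15 and below all controls in CAL-27, where the controls were spread more widely than in any other group of this gene. The log2 fold change was 0.84 ± 0.10 in SCC-15 (SE, edgeR adjusted p = 2.23e-04) and -0.48 ± 0.077 in CAL-27 (edgeR adjusted p = 1.61e-03). The difference of 1.32 ± 0.13 (edgeR adjusted p = 6.00e-05) was the largest among the 10 genes.

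CLDN1 (chromosome 3, 190305701 to 190322475, minus strand) encodes the claudin of the epidermal barrier. SCC-15 shTTK libraries had 21.98, 21.7 and 22.1 CPM and SCC-15 shControl libraries 34.9, 33.1 and 27.9 CPM. CAL-27 shTTK libraries had 1501, 1486 and 1530 CPM and CAL-27 shControl libraries 1388, 1472 and 1412 CPM. Knockdown libraries were all lower than controls in SCC-15 and all higher in CAL-27. CLDN1 fell by 0.55 ± 0.056 on the log2 scale in SCC-15 (SE, edgeR adjusted p = 1.72e-11), to 68.5% of the shControl level, while CDH1, CLDN4 and OCLN rose there. In CAL-27 the log2 fold change of 0.08, with an interval of 0.01 to 0.15, was not called (edgeR adjusted p = 0.0611), although 14 of 20 alternative analyses called it higher. The 2 lines differed by -0.63 ± 0.065 (edgeR adjusted p = 3.06e-11).

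CLDN7 (chromosome 17, 7259903 to 7263983, minus strand), a claudin that also lies along the lateral membrane, had the lowest level per length of the 3 claudins in each group. It had 13.4, 12.6 and 11.9 CPM in SCC-15 shTTK libraries and 12.6, 11.7 and 9.62 CPM in SCC-15 shControl libraries. CAL-27 shTTK libraries had 36.6, 39.9 and 37.6 CPM and CAL-27 shControl libraries 33.2, 32.3 and 28.4 CPM. The groups overlapped in SCC-15 and were separate in CAL-27. CLDN7 rose by a log2 fold change of 0.28 ± 0.076 in CAL-27 (SE, edgeR adjusted p = 2.80e-03). The SCC-15 value of 0.16 was not called, with an interval of -0.04 to 0.35 (edgeR adjusted p = 0.268), and the difference of -0.12 was not called either (interval -0.37 to 0.13, edgeR adjusted p = 0.534). The CAL-27 call was lost without shControl library 3 (0.21, edgeR adjusted p = 0.0524).

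Occludin, the first transmembrane protein found in tight junctions, is encoded by OCLN (chromosome 5, 69492292 to 69558104, plus strand). Its level was 21.0, 21.9 and 24.3 CPM in SCC-15 shTTK libraries and 16.2, 17.2 and 17.1 CPM in SCC-15 shControl libraries. It was 12.4, 12.8 and 10.6 CPM in CAL-27 shTTK libraries and 14.9, 13.0 and 16.2 CPM in CAL-27 shControl libraries. SCC-15 knockdown libraries were all above their controls, and CAL-27 knockdown libraries were all below theirs, by a narrow gap at library 2. The log2 fold change was 0.41 ± 0.091 in SCC-15 (SE, edgeR adjusted p = 2.04e-04) and -0.30 ± 0.10 in CAL-27 (edgeR adjusted p = 0.0214), a difference of 0.71 ± 0.14 (edgeR adjusted p = 2.57e-05). With 172 to 216 counts in CAL-27 shTTK libraries and 237 to 261 in CAL-27 shControl libraries, the CAL-27 call was fragile. It was lost without shControl library 1 (edgeR adjusted p = 0.0540) or 3 (0.139), without shTTK library 3 (0.216), with no count filter (0.0567) and with DESeq2 (DESeq2 adjusted p = 0.0594).

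F11R (chromosome 1, 160995211 to 161021348, minus strand) encodes JAM-A, an immunoglobulin-type adhesion molecule that recruits polarity proteins to the junction. SCC-15 shTTK libraries had 134, 130 and 130 CPM and SCC-15 shControl libraries 139, 141 and 138 CPM. CAL-27 shTTK libraries had 114, 117 and 110 CPM and CAL-27 shControl libraries 103, 112 and 108 CPM. The ranges were separate in SCC-15, with knockdown lower, and overlapped in CAL-27. Neither change was called: -0.08 in SCC-15 (interval -0.16 to -0.01, edgeR adjusted p = 0.0950) and 0.09 in CAL-27 (interval 0.01 to 0.17, edgeR adjusted p = 0.110). The difference between the lines, -0.17 ± 0.056, was called (edgeR adjusted p = 0.0161), but not without CAL-27 shControl library 1 (-0.13, edgeR adjusted p = 0.0974) or CAL-27 shTTK library 2 (-0.15, edgeR adjusted p = 0.0620).

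TJP1 (chromosome 15, 29699367 to 29968865, minus strand) encodes ZO-1, the plaque scaffold that binds claudins, occludin and actin. SCC-15 shTTK libraries had 97.7, 103 and 109 CPM and SCC-15 shControl libraries 112, 108 and 114 CPM. CAL-27 shTTK libraries had 103, 107 and 104 CPM and CAL-27 shControl libraries 121, 118 and 110 CPM. The SCC-15 ranges overlapped and the CAL-27 ranges did not. TJP1 fell by 0.16 ± 0.042 on the log2 scale in CAL-27 (SE, edgeR adjusted p = 2.99e-03). Its SCC-15 decrease was smaller: it fell by 0.11 ± 0.042 there (edgeR adjusted p = 0.0492), a call at the threshold that only 5 of 20 alternative analyses kept. The difference between the lines was 0.05, with an interval of -0.07 to 0.17 (edgeR adjusted p = 0.628).

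**Figure D3:**
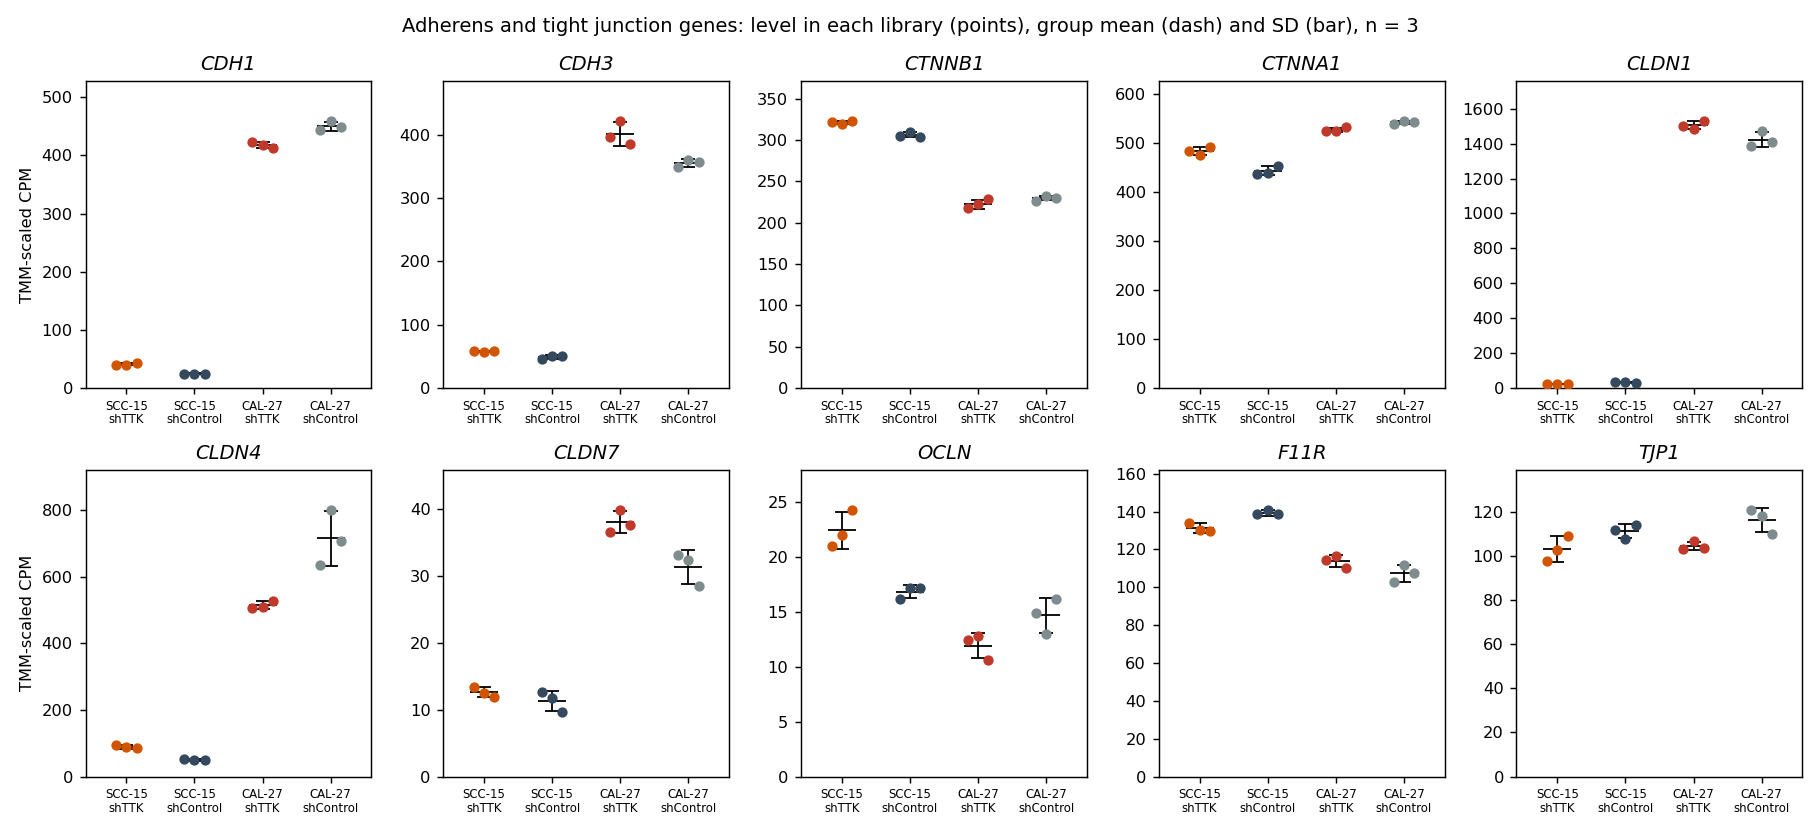
TMM-scaled CPM (y axis, from 0, a scale of its own for each gene) of the 10 junction genes in every library (points), with group mean (dash) and SD (bar), n = 3. CDH1 lies at 413 to 459 CPM in CAL-27 and 23.1 to 42.5 CPM in SCC-15, and the CLDN4 pair of groups stands in opposite order in the 2 lines.

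The difference between the lines in their response was called for 6 of the 10 genes, 4 higher and 2 lower in SCC-15 relative to CAL-27, where 25.4% of all genes were called (13.3% higher and 12.1% lower). The 4 are CDH1, CTNNA1, CLDN4 and OCLN and the 2 are CLDN1 and F11R. The median difference was 0.08 over the 10 genes and 0.002 over all genes tested. The genes on the positive side come from both junction types, and so do CDH3, CTNNB1, CLDN7 and TJP1, for which no difference was called.

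Without both SCC-15 libraries numbered 1, the SCC-15 changes of 6 of these genes were again called. CDH1 had a log2 fold change of 0.75 (edgeR adjusted p = 5.53e-17), CLDN4 0.82 (5.59e-03) and OCLN 0.43 (2.17e-03). CDH3 was at 0.18 (9.17e-03), CTNNA1 at 0.12 (4.99e-03) and CLDN1 at -0.48 (1.12e-08), all by the same fit. TJP1 was at -0.06 and not called (edgeR adjusted p = 0.406). The differences between the lines kept their calls for CDH1 (0.86), CTNNA1 (0.17), CLDN1 (-0.55), CLDN4 (1.30), OCLN (0.73) and F11R (-0.18).

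For all of the 10 genes but OCLN and TJP1, the difference between the lines was larger than either knockdown change. Between shControl libraries, SCC-15 had lower levels of 6 genes than CAL-27 and higher levels of 2, where 76% of all genes were called (37.8% higher and 38.2% lower). CLDN1 averaged 32.0 ± 3.64 CPM in SCC-15 shControl and 1424 ± 43.4 CPM in CAL-27 shControl (SD, n = 3 each), a log2 fold change of -5.48 ± 0.044 (SE, edgeR adjusted p = 2.66e-61). CDH1 averaged 24.1 ± 0.855 CPM in SCC-15 shControl and 451 ± 7.75 CPM in CAL-27 shControl (-4.22 ± 0.042, edgeR adjusted p = 1.19e-76), so SCC-15 held 5.36% of the CAL-27 level. CLDN4 (-3.84), CDH3 (-2.85), CLDN7 (-1.47) and CTNNA1 (-0.29) were lower in SCC-15 as well, with the largest edgeR adjusted p at 1.98e-10. CTNNB1 (0.42, edgeR adjusted p = 6.43e-20) and F11R (0.38, edgeR adjusted p = 6.00e-14) were higher in SCC-15.

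OCLN (0.20, edgeR adjusted p = 0.0550) and TJP1 (-0.07, edgeR adjusted p = 0.147) were not called between the lines. The ranges did not overlap for 9 genes, 3 higher and 6 lower in SCC-15, where 77.3% of all genes were separated (38.2% higher and 39.1% lower). The cadherins and claudins thus differed most, and the catenins, TJP1, F11R and OCLN differed by less than 0.5 on the log2 scale. This contrast sets 1 line against another and shares its shControl libraries with the knockdown contrasts, so no relation between them is drawn. Without both SCC-15 libraries numbered 1, the same 8 genes were called and OCLN in addition (0.23, edgeR adjusted p = 0.0471). Without CAL-27 shControl library 3, OCLN (0.27, edgeR adjusted p = 0.0199) and TJP1 (-0.11, edgeR adjusted p = 0.0342) were both called.

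**Figure D4:**
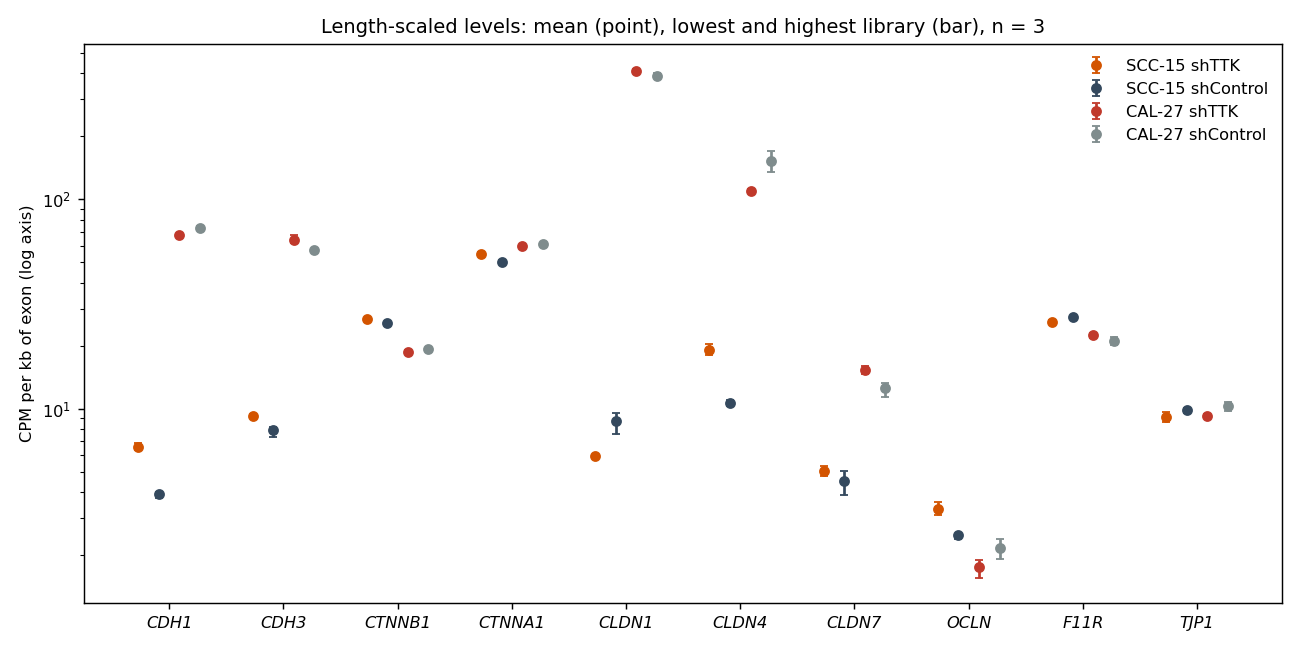
CPM per kilobase of exon (y axis, log scale) of the 10 junction genes by group: mean (point) with the lowest and highest library (bar), n = 3. CLDN1 spans the widest range, 5.99 in SCC-15 shTTK, 8.73 in SCC-15 shControl, 411 in CAL-27 shTTK and 389 in CAL-27 shControl, and TJP1 lies between 9.17 and 10.3 in all 4 groups.

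Levels of different genes can be set side by side only per length, as CPM per kilobase of exon. In SCC-15 shTTK the order was CTNNA1 (54.9), CTNNB1 (26.96), F11R (25.9), CLDN4 (19.1), CDH3 (9.24), TJP1 (9.17), CDH1 (6.56), CLDN1 (5.99), CLDN7 (5.06) and OCLN (3.31). CDH3 and TJP1 overlapped there. In SCC-15 shControl it was CTNNA1 (50.3), F11R (27.5), CTNNB1 (25.7), CLDN4 (10.6), TJP1 (9.88), CLDN1 (8.73), CDH3 (7.90), CLDN7 (4.53), CDH1 (3.91) and OCLN (2.49), with overlap of CLDN1 with CDH3 and of CLDN7 with CDH1. In SCC-15, CDH1 stood ninth among the 10 genes in shControl libraries, level with CLDN7, and seventh in shTTK libraries, apart from its neighbours.

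In CAL-27, CLDN1 and CLDN4 led. In CAL-27 shTTK the order of CPM per kilobase was CLDN1 (411), CLDN4 (109), CDH1 (67.6), CDH3 (64.3), CTNNA1 (59.7), F11R (22.5), CTNNB1 (18.7), CLDN7 (15.3), TJP1 (9.28) and OCLN (1.76), with overlap of CDH1 and CDH3 only. In CAL-27 shControl it was CLDN1 (389), CLDN4 (152), CDH1 (73.0), CTNNA1 (61.5), CDH3 (57.0), F11R (21.2), CTNNB1 (19.3), CLDN7 (12.6), TJP1 (10.3) and OCLN (2.17), and no neighbours overlapped. The alpha-catenin gene led in SCC-15 and the CLDN1 gene in CAL-27. OCLN was the lowest of the 10 in all 4 groups.

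Other genes of the same structures were read from lists of known components. Each list count of the knockdown contrasts stands beside 27.7% of all genes called in SCC-15 (13.4% higher and 14.3% lower). In CAL-27 the share was 27.3% (11.6% higher and 15.7% lower), and counts near these shares are not particular to a list. Among 17 tested genes of the adherens junction outside the 10, 3 rose and 8 fell in SCC-15, and 3 rose and 6 fell in CAL-27. NECTIN1, an immunoglobulin-type adhesion receptor of the junction, averaged 377 CPM in SCC-15 shTTK and 460 CPM in SCC-15 shControl (log2 fold change -0.29, edgeR adjusted p = 1.97e-11). It averaged 184 CPM in CAL-27 shTTK and 105 CPM in CAL-27 shControl (0.80, edgeR adjusted p = 9.16e-31). SSX2IP, a binding partner of afadin, fell in SCC-15 (-0.69, edgeR adjusted p = 4.51e-15), and vinculin (VCL), which binds alpha-catenin under tension, rose there (0.30, edgeR adjusted p = 2.47e-13). In CAL-27, plakoglobin (JUP), the close relative of beta-catenin, rose (0.20, edgeR adjusted p = 6.24e-08), and the junction kinesin KIFC3 fell (-0.26, edgeR adjusted p = 6.33e-07). The median of this list was -0.10 in SCC-15 and -0.04 in CAL-27, and without both SCC-15 libraries numbered 1 the SCC-15 count was 2 higher and 5 lower.

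Of 6 other cadherins tested, edgeR called 0 in SCC-15 (1 at an unadjusted p under 0.05, 0 with DESeq2 and 0 with limma-voom), and in CAL-27 1 rose and 2 fell. CDH2, N-cadherin, averaged 14.4 CPM in CAL-27 shTTK and 35.1 CPM in CAL-27 shControl (-1.29, edgeR adjusted p = 1.40e-18). In SCC-15 it averaged 5.47 CPM in shTTK and 5.96 CPM in shControl. CDH5, the endothelial cadherin, averaged 71.5 CPM in CAL-27 shTTK and 104 CPM in CAL-27 shControl (-0.54, edgeR adjusted p = 4.94e-14). It makes up nearly all of the endothelial marker sum, which was 72.4 to 74.4 CPM in CAL-27 shTTK and 102 to 110 CPM in CAL-27 shControl. In these libraries PECAM1 had 7 to 31 and VWF 9 to 27 counts each, and KDR and EMCN had 0. CDH13, which lacks the catenin-binding tail, rose in CAL-27 (0.29, edgeR adjusted p = 5.75e-03).

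The main fit called some other tight junction membrane proteins, each of them lower. Of all genes, 27.7% were called in SCC-15 (14.3% lower) and 27.3% in CAL-27 (15.7% lower). In SCC-15 the called genes were 1 of 7 claudins and 1 of 9 other membrane proteins, which is not particular to these lists. Over the alternatives, the claudins and the other membrane proteins each had up to 1 gene called higher in CAL-27. Of 7 other claudins tested, 1 fell in SCC-15 (CLDN16, at 0.553 CPM in shTTK and 1.04 CPM in shControl, not called without both SCC-15 libraries numbered 1) and CLDN3, CLDN9 and CLDN18 fell in CAL-27. CLDN18 averaged under 5 CPM in both CAL-27 groups. CLDN3 averaged 2.69 CPM in CAL-27 shTTK and 6.29 CPM in CAL-27 shControl (-1.22, edgeR adjusted p = 2.80e-06), and CLDN9 3.16 CPM in CAL-27 shTTK and 5.27 CPM in CAL-27 shControl (-0.74, edgeR adjusted p = 3.62e-03). Of 9 other membrane proteins, CXADR, the coxsackie and adenovirus receptor, fell in SCC-15 (-0.70, edgeR adjusted p = 5.82e-13). In CAL-27, CXADR (-0.18), MARVELD3, an occludin relative (-0.31), and the polarity protein CRB3 (-0.16) fell, with edgeR adjusted p of 0.0299, 8.32e-03 and 0.0484. The CXADR, CRB3 and MARVELD3 calls in CAL-27 were kept by 11, 5 and 18 of 20 alternatives.

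Among 22 plaque and polarity genes, 6 rose and 3 fell in SCC-15 and 2 rose and 6 fell in CAL-27, with medians of 0.15 and -0.08. The share of all genes called was 27.7% in SCC-15 and 27.3% in CAL-27. Without both SCC-15 libraries numbered 1, 4 rose and 2 fell in SCC-15. Cingulin (CGN), a plaque protein that binds ZO-1, rose in SCC-15 (0.41, edgeR adjusted p = 6.78e-05), as did the RhoA exchange factor ARHGEF2 (0.27, edgeR adjusted p = 9.30e-06), and the polarity kinase PRKCI fell (-0.23, edgeR adjusted p = 1.66e-07). In CAL-27 the polarity adaptor PARD6B (-0.46, edgeR adjusted p = 1.53e-06) and the angiomotin-like AMOTL2 (-0.35, edgeR adjusted p = 3.24e-14) fell and AMOTL1 rose (0.40, edgeR adjusted p = 6.40e-14). PARD6B was among the genes that rose in SCC-15 (0.37).

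**Figure D5:**
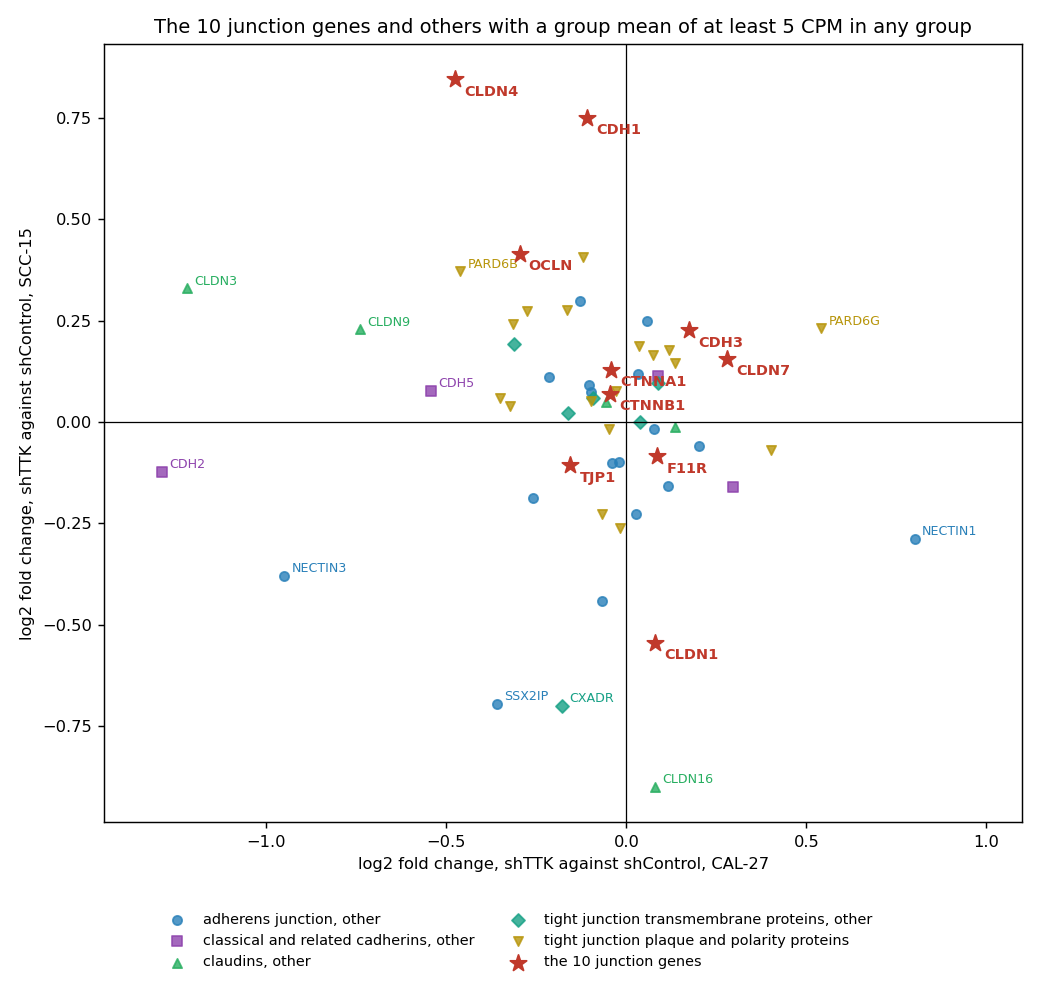
Log2 fold change in CAL-27 (x axis) and SCC-15 (y axis), shTTK against shControl, of the 10 junction genes (stars) and of 50 other junction genes with a group mean of at least 5 CPM in any group (other symbols). CDH1, CLDN4 and OCLN lie in the upper left field and CLDN1 at -0.55 on the y axis, and the 10 genes and any other beyond 0.45 in either line are named.

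Transcription and splicing factors known to act on junction genes were read in the same way. Of all genes, 27.7% were called in SCC-15 and 27.3% in CAL-27. Among 10 tested repressors of epithelial junction genes, SNAI2, TWIST2 and FOXC2 rose in SCC-15 and FOXC2 fell in CAL-27. FOXC2 averaged under 5 CPM in each group. Without both SCC-15 libraries numbered 1, 2 repressors rose and 1 fell in SCC-15. In CAL-27, 0 rose and 0 fell in that fit, so the FOXC2 call there was lost. SNAI2 averaged 109 CPM in SCC-15 shTTK and 96.6 CPM in SCC-15 shControl (0.17, edgeR adjusted p = 1.44e-03), where CDH1 rose too. TWIST2 averaged 12.6 CPM in SCC-15 shTTK and 9.39 CPM in SCC-15 shControl (0.43, edgeR adjusted p = 0.0116) and had 0 counts in CAL-27. Its SCC-15 call was kept by 16 of 20 alternatives, with a largest adjusted p of 0.122. Of 13 epithelial factors, 2 rose and 2 fell in SCC-15, and 6 rose and 1 fell in CAL-27. In SCC-15, ELF3 (0.27, edgeR adjusted p = 8.04e-06) and the splicing factor ESRP2 (0.31, edgeR adjusted p = 3.83e-04) rose and TP63 fell (-0.18, edgeR adjusted p = 4.75e-06). In CAL-27, TP63 (1.099), KLF5 (0.77) and KLF4 (1.01) rose, with edgeR adjusted p of 2.59e-43, 1.31e-29 and 2.22e-16, while CDH1, CLDN4 and OCLN fell. A relation of any of these repressors or epithelial factors to the junction genes was not tested in either line.

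Between the shControl libraries, 7 of the 10 repressors were higher in SCC-15 and 1 lower, and 5 of the 13 epithelial factors were higher and 8 lower. Of all genes, 76% were called in this contrast (37.8% higher and 38.2% lower), so counts near those shares are not particular to either list. SNAI2 averaged 96.6 CPM in SCC-15 shControl and 27.7 CPM in CAL-27 shControl, and ZEB1 4.19 CPM in SCC-15 shControl and 0.233 CPM in CAL-27 shControl. Of the epithelial factors, EHF, ESRP1 and GRHL2 were low in SCC-15, while KLF5, TP63 and ELF3 had higher means there than in CAL-27. KLF5 averaged 484 CPM in SCC-15 shControl and 80.2 CPM in CAL-27 shControl. TP63 averaged 277 CPM in SCC-15 shControl and 224 CPM in CAL-27 shControl, and ELF3 263 CPM in SCC-15 shControl and 199 CPM in CAL-27 shControl. EHF averaged 2.33 CPM in SCC-15 shControl and 577 CPM in CAL-27 shControl. ESRP1 averaged 0.828 CPM in SCC-15 shControl and 97.0 CPM in CAL-27 shControl, and GRHL2 0.154 CPM in SCC-15 shControl and 71.8 CPM in CAL-27 shControl. SNAI2, ZEB1, EHF, ESRP1 and GRHL2 were singled out for this contrast after their values were seen.

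Of 10 tested genes that shed or turn over E-cadherin, 5 rose and ADAM10 fell in SCC-15, and 4 rose and ARF6 fell in CAL-27. The share of all genes called was 27.7% in SCC-15 and 27.3% in CAL-27. The sheddases ADAM15 in SCC-15 (0.18, edgeR adjusted p = 4.31e-06) and ADAM10 in CAL-27 (0.11, edgeR adjusted p = 0.0153) rose, as did MMP14 in CAL-27 (0.10, edgeR adjusted p = 0.0236). In CAL-27, the ADAM10 and MMP14 calls were kept by 18 and 17 of 20 alternatives. Without both SCC-15 libraries numbered 1, 4 rose and 0 fell in SCC-15, so the ADAM10 decrease there was no longer called. ARF6, a GTPase of cadherin endocytosis, rose in SCC-15 (0.15, edgeR adjusted p = 5.06e-04) and fell in CAL-27 (-0.14, edgeR adjusted p = 2.27e-03).

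The partners of beta-catenin outside the junction were mixed. Of 10 genes of the destruction complex, 2 rose and 3 fell in SCC-15, and 3 rose and 1 fell in CAL-27. Calls over all genes made up 27.7% in SCC-15 and 27.3% in CAL-27. FBXW11 (-0.26, edgeR adjusted p = 1.42e-05) and BTRC (-0.27, edgeR adjusted p = 2.12e-03), the ubiquitin ligase receptors for beta-catenin, and APC (-0.20, edgeR adjusted p = 2.57e-03), its scaffold, fell in SCC-15. In CAL-27, the kinase genes GSK3B (0.18, edgeR adjusted p = 9.37e-04) and CSNK1A1 (0.14, edgeR adjusted p = 2.10e-03) rose and GSK3A fell (-0.20, edgeR adjusted p = 1.67e-03).

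Among 16 TCF factors and target genes of beta-catenin, 4 rose and 1 fell in SCC-15 and 3 rose and 2 fell in CAL-27. These counts lie near the shares of all genes called, 27.7% in SCC-15 and 27.3% in CAL-27, and are not particular to the list. CCND1, cyclin D1, rose in SCC-15 (0.27, edgeR adjusted p = 3.28e-08) and fell in CAL-27 (-0.40, edgeR adjusted p = 5.75e-14). CD44 (0.26, edgeR adjusted p = 1.47e-10) and NKD1 (0.71, edgeR adjusted p = 2.95e-04) rose in SCC-15. In CAL-27, DKK1, a secreted Wnt inhibitor, fell (-0.41, edgeR adjusted p = 5.61e-10) and the coactivator BCL9L rose (0.14, edgeR adjusted p = 3.01e-03).

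The genes most like CDH1 in their pair of knockdown changes were sought among 9552 genes with a mean of at least 10 CPM, by the distance between the 2 log2 fold changes. The 5 nearest were AKAP12 (distance 0.030), CASZ1 (0.039), GPR89A (0.039), ECM1 (0.044) and RPS23 (0.072). AKAP12 had log2 fold changes of 0.75 in SCC-15 and -0.14 in CAL-27, and ECM1 0.74 in SCC-15 and -0.15 in CAL-27. The likeness rests on 2 values per gene. GPR89A and RPS23 have near-identical copies, and the counting of reads on such copies is not stated.

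Some of the 10 genes share exon sequence with other annotated genes. F11R shares 36.6% of its exon bases with AL591806.3 on the same strand, which had 16 counts in the 12 libraries together. CDH3 shares 11.1% with the antisense AC126773.2 (115 counts in all). CDH1 shares 5.62% with the antisense AC099314.1 (4 counts in all), and CTNNA1 5.04% with LRRTM2 on the opposite strand (59 counts in all). CLDN7 shares 10.8% with AC003688.1 on its own strand (0 counts in all) and 1.53% with ELP5 on the opposite strand (10472 counts). No change of ELP5 was called in SCC-15 (-0.05) or CAL-27 (-0.01). No source used here states the strand setting of the counting or how reads on 2 genes were assigned. Reads in the shared stretches of these genes may therefore belong to either gene or be left uncounted. Levels per length used the whole exon union, the shared stretch of F11R included, so its place in the order carries this limit.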

How the data were processed

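RNA of 12 libraries (4 groups of 3) was measured by poly(A) RNA sequencing. The authors deposited unnormalized read counts for each gene in 12 columns, and 0 columns were left unmapped. The submitters' processing notes name featureCounts 2.0.1, STAR 2.7.7a, Trim Galore 0.6.6 and the build hg38. Neither annotation release, strand setting nor treatment of multimapping reads is given in the sources used here. From the counts, edgeR 4.0.16 in R 4.3.3 kept 16946 genes (filterByExpr), scaled them by TMM and fitted a robust quasi-likelihood model with 4 group means, leaving 8 residual degrees of freedom. Two-sided p-values were adjusted by Benjamini-Hochberg over all genes of a contrast, and an adjusted p under 0.05 was called. Standard errors were taken from the fold change and its F statistic, and intervals are at 95%. CPM per kilobase used the exon union of GENCODE 29. Library totals of 16176655 to 18484112 counts and 3 libraries per group limit precision. The steps were tested on simulated data. The 10 genes, the 14 gene lists and the tests were chosen with earlier results of these data known.

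Genes named from lists are up to 3 per list and knockdown contrast with the smallest adjusted p, called, with at least 5 CPM in the higher group, and 1 such gene is not reported here. Other genes were singled out by value where the text says so. CLDN16, PKP1, EPCAM, SFN, CLDN18, FOXC2 and the PARD6B value in SCC-15 were also chosen after their values were seen. So were PDGFRB, COL1A2, ITGAM, PECAM1 and VWF. Alternatives were RLE factors, DESeq2 1.42.0, limma-voom (limma 3.58.1), no filter, 1 CPM in 3 libraries, each line alone, a replicate block, no SCC-15 libraries numbered 1, and each library left out. The promoters of CDH1, CDH3 and F11R were not analysed here.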

Additional observations from a re-analysis of the deposited data

Results flagged for a closer look

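The response to TTK knockdown differed between SCC-15 and CAL-27 for 6 of the 10 junction genes, by edgeR's interaction test, SCC-15 less CAL-27 (adjusted over all genes). The differences were positive for CLDN4 (1.32, edgeR adjusted p = 6.00e-05), CDH1 (0.86, edgeR adjusted p = 2.37e-20), OCLN (0.71, edgeR adjusted p = 2.57e-05) and CTNNA1 (0.17, edgeR adjusted p = 9.42e-04). They were negative for CLDN1 (-0.63, edgeR adjusted p = 3.06e-11) and F11R (-0.17, edgeR adjusted p = 0.0161). CDH1, CLDN4 and OCLN were called in both lines with opposite sign. CTNNA1 and CLDN1 were called in SCC-15 and not in CAL-27, and F11R in neither. TTK was lowered more in SCC-15 than in CAL-27, and depth of knockdown and line cannot be told apart here.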

How the results depend on the processing

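Of 790 values of the 10 genes under the alternatives, 738 stayed on their side of the threshold, 26 lost a call, 26 gained one and 0 changed sign. Of 40 gene-by-contrast results, 29 had the same call in each alternative run. The number of genes called lower in SCC-15 was 1 in place of 2 with RLE size factors, DESeq2, limma-voom, no count filter, and without both SCC-15 libraries numbered 1, each time through TJP1. With no count filter 2 in place of 4 were lower in CAL-27, and with each line alone 4 in place of 2 were higher there. With 1 library left out, CAL-27 had 1 to 4 genes higher and 2 to 4 lower, or 4 to 8 called. SCC-15 had 1 to 2 lower and 6 to 7 called. The difference had 1 to 2 lower and 5 to 6 called. The difference could not be fitted with each line alone. The cause of these shifts was not tested. No scaling moved the median of all genes by over 0.1.

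Replicate numbers did not pair the samples: correlations of deviations from group means for equal numbers were -0.007, -0.008 and 0.016 in SCC-15 and -0.002, 0.016 and 0.002 in CAL-27. With the replicate number as a block, 39 of 40 calls were the same, and CLDN1 in CAL-27 was called (0.08, edgeR adjusted p = 0.0431). SCC-15 then had 7 genes called and CAL-27 7. The calls of APC in SCC-15 and of ARF6, BCL9L, CDH13 and CLDN9 in CAL-27 were each kept by 19 of 20 alternatives. Depth limits OCLN in CAL-27, with 172 to 216 counts per shTTK library.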
